A study of Mus musculus with 4 samples.

Results

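Methylation of lysine 9 on histone H3 (H3K9) marks silent chromatin, and the 10 genes described here encode enzymes that place the mark, proteins that bring them to DNA, and proteins that read it: Trim28, Setdb1, Ehmt1, Ehmt2, Suv39h1, Suv39h2, Cbx1, Cbx3, Cbx5 and Zfp57. They were chosen by symbol for their place in this pathway, and all 10 were found among the 21639 genes and transcripts tested on these arrays. Together they had 15 probes, and every one of them was well above background on all 4 arrays.

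The arrays compared mouse embryonic stem cell (ESC) lines lacking Dppa2 (also called ECAT15-2) with wild-type lines, 2 lines of each, 1 array per line. The knockout (KO) lines were 15-2-/- and also 15-1CT/CT, which means that they carried a conditional targeted allele of Dppa4 (ECAT15-1) on both copies, whereas the wild-type (WT) lines were 15-1+/+ and 15-2+/+, and the 2 loci cannot be told apart in this comparison. Lines KO 1 and WT 1 were derived from blastocysts of mother 1046 and lines KO 2 and WT 2 from blastocysts of mother 875, on a mixed background of 129Sv, C57/BL6 and a Cre or FLPe transgenic strain that the labels do not name. All were grown on gelatin with LIF and 15% serum and harvested after 3 days. Age does not apply, and passage numbers are not given in the sources used here.

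In the pathway, TRIM28 is a corepressor that is brought to DNA by zinc finger proteins with a KRAB domain and in turn recruits SETDB1, an H3K9 methyltransferase that silences endogenous retroviruses in ESCs. EHMT1 (GLP) and EHMT2 (G9a) act as a heterodimer that places lower methylation states on H3K9 in euchromatin, while SUV39H1 and SUV39H2 place trimethylation at pericentromeric repeats. The HP1 proteins, encoded by Cbx5 (alpha), Cbx1 (beta) and Cbx3 (gamma), bind the methylated lysine through a chromodomain. ZFP57 is a KRAB zinc finger protein that binds methylated imprinting control regions and keeps them methylated together with TRIM28.

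None of the 10 genes passed the test over all genes (limma, Benjamini-Hochberg adjusted p under 0.05), against 1.84% of all genes tested, 0.176% higher and 1.67% lower in KO lines. With 2 lines a group only large differences passed: the smallest log2 difference of a called gene was 1.22 in size, and 0 of the 18523 genes whose difference was under 1 in size were called. Of the 10 genes 9 differed by less than 1, so the test could hardly have called them, and the absence of calls does not show that their levels were equal. A limma model that also held the mother as a block gave 0 calls among all genes (smallest adjusted p 0.0807; 10.5% higher and 12.6% lower at an unadjusted p under 0.05). Values are log2 signals scaled to the 75th percentile of each array, and differences are KO minus WT on that scale. Over all genes the median difference was 0.10, against which the values below are to be read. At an unadjusted p under 0.05, 3 of the 10 were higher and 0 lower, where 11.2% of all genes were higher and 12.4% lower. Both KO lines lay above both WT lines for 6 of the 10 genes, against 37.7% of all genes, and below them for 1 of 10, against 24.5%.

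Zfp57 had the largest difference of the 10. Its signal was 11.76 and 11.25 in the KO lines, against 10.27 and 9.49 in the WT lines. The KO lines did not overlap the WT lines, and each group held a spread of its own, with SDs of 0.36 in KO and 0.55 in WT lines. The difference was 1.63 (SE 0.36, 95% interval 0.60 to 2.67, n = 2 per group), a 3.10-fold higher mean in KO lines, at an unadjusted limma p of 0.0128 and an adjusted p of 0.129. Within the pairs from the same mother it was 1.50 for mother 1046 and 1.77 for mother 875. With the mother as a block the limma adjusted p was 0.103. Leaving out single lines gave 1.24 to 2.02, and no setting tried brought Zfp57 past the threshold (limma adjusted p of 0.0845 to 0.370). The genes whose 4 centred values lay nearest to those of Zfp57, by Euclidean distance over the 4 arrays, were Mep1b, Kcnk2 and Klb, at distances of 0.22, 0.26 and 0.27. None of these 3 passed the test either, with limma adjusted p of 0.178, 0.166 and 0.152. They were picked for values like those of Zfp57, so their results are not separate evidence. Kcnk2 lay near the floor in the WT lines, at 3.77 and 2.98.

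Trim28, the corepressor gene, was measured at 16.49 and 16.57 in the KO lines, against 16.02 and 15.94 in the WT lines. The 2 lines of each genotype lay close together, with SDs of 0.06 in both groups, and the groups did not overlap. The difference was 0.55 (SE 0.13, 95% interval 0.18 to 0.91), or 1.46-fold, at an unadjusted limma p of 0.0145 and an adjusted p of 0.135. It was 0.47 and 0.63 in the pairs of mothers 1046 and 875. The size depended on the scaling between arrays: 0.36 under quantile scaling and 0.71 under median centring.

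Cbx1, which encodes HP1 beta, gave 15.09 and 15.29 in the KO lines, against 14.66 and 14.39 in the WT lines. Here too both KO lines were above both WT lines, by 0.43 between the lines of mother 1046 and by 0.90 between those of mother 875. The difference over all 4 arrays was 0.67 (SE 0.17, 95% interval 0.17 to 1.16), or 1.59-fold, at an unadjusted limma p of 0.0206 and an adjusted p of 0.154.

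**Figure D1:**
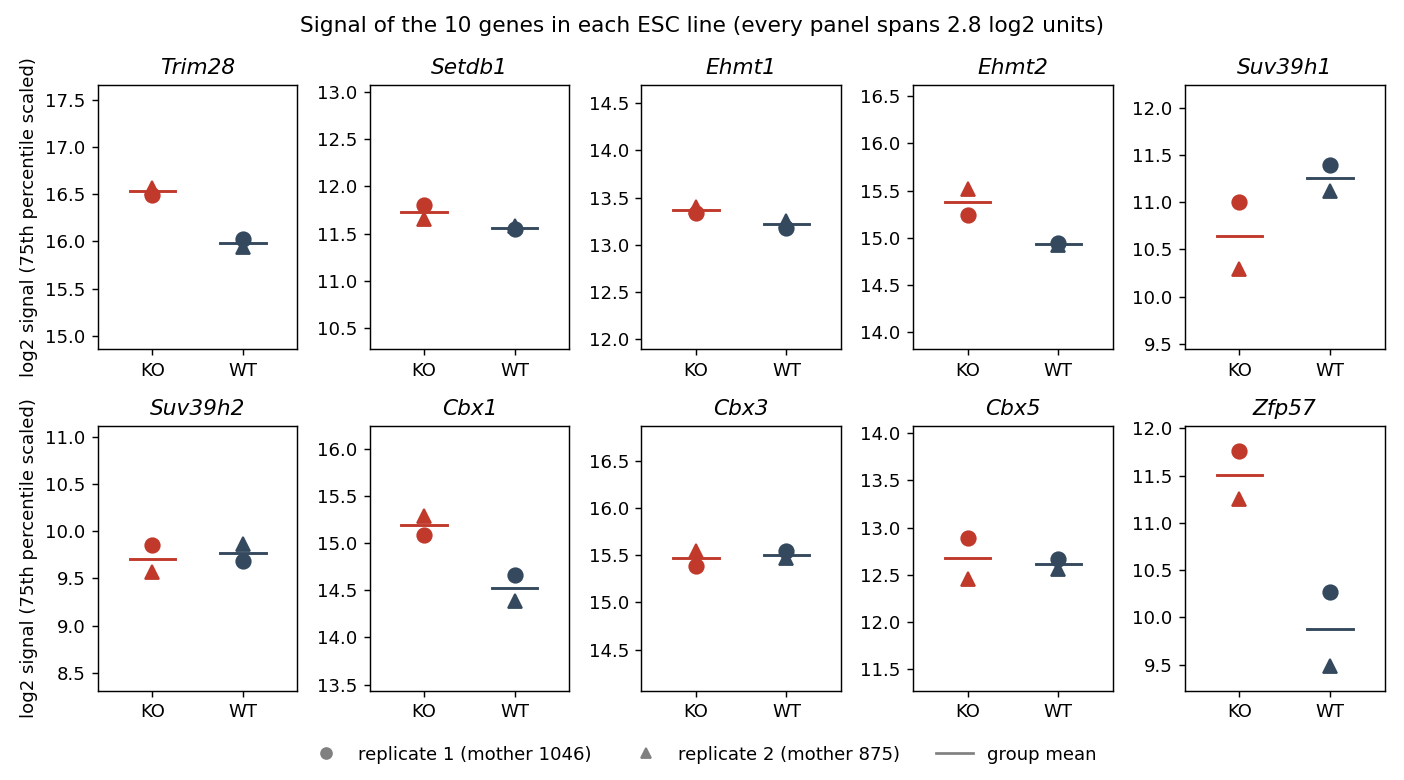
Log2 signal of the probe standing for each of the 10 genes (y axis, every panel spanning the same log2 range) in the KO lines (left, red) and WT lines (right, dark blue); circles are lines of mother 1046, triangles lines of mother 875, and bars group means. The 2 KO values lie above both WT values for Zfp57, Trim28, Cbx1, Ehmt2, Setdb1 and Ehmt1, below them for Suv39h1, and overlap them for Suv39h2, Cbx3 and Cbx5.

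The other HP1 genes did not show a difference of this size. Cbx3 (HP1 gamma) had 15.38 and 15.55 in the KO lines, against 15.55 and 15.47 in the WT lines, and the groups overlapped. Its difference was -0.04 (95% interval -0.43 to 0.35), and its second probe gave 0.06 (95% interval -0.34 to 0.46). Cbx5 (HP1 alpha) was at 12.89 and 12.46 in the KO lines, against 12.67 and 12.57 in the WT lines. Its 3 probes gave differences of 0.06, 0.13 and 0.19, with 95% intervals that together ran from -0.52 to 0.63. The intervals reach 0.46 for Cbx3 and 0.63 for Cbx5, and the interval of Cbx1, 0.17 to 1.16, overlaps both. The difference between these genes was not itself tested. The differences of Cbx3 and Cbx5 are small enough to change sign with the scaling: Cbx3 was positive under median centring and Cbx5 negative under quantile scaling.

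Of the methyltransferase genes, Ehmt2 (G9a) was highest relative to WT. It measured 15.24 and 15.52 in the KO lines, against 14.95 and 14.92 in the WT lines. The WT lines were nearly equal, with an SD of 0.02, while the KO lines had an SD of 0.20. The difference was 0.45 (SE 0.16, 95% interval -0.005 to 0.90), or 1.36-fold, at an unadjusted limma p of 0.0516 and an adjusted p of 0.214, and it was 0.29 under quantile scaling. Its partner Ehmt1 (GLP) had 13.34 and 13.40 in the KO lines, against 13.18 and 13.25 in the WT lines, a difference of 0.15 (95% interval -0.20 to 0.51) with an adjusted limma p of 0.480. That difference shrank to 0.03 under quantile scaling.

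Setdb1, the methyltransferase recruited by TRIM28, stood at 11.80 and 11.66 in the KO lines, against 11.55 and 11.58 in the WT lines. The groups did not overlap, but the gap between KO 2 and WT 2 was only 0.08. The difference was 0.16 (95% interval -0.21 to 0.54), with an adjusted limma p of 0.473.

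Suv39h1 was the gene with the lowest value relative to WT. Its signal was 11.00 and 10.29 in the KO lines, against 11.39 and 11.12 in the WT lines. Line KO 2 was the lowest of the 4, and the KO lines differed from each other more than WT 1 did from KO 1. The difference was -0.61 (SE 0.31, 95% interval -1.49 to 0.26, limma adjusted p = 0.309), with -0.39 between the lines of mother 1046 and -0.83 between those of mother 875. Without KO 2 it was -0.25 and without KO 1 it was -0.97, so single lines set its size. Suv39h1 lies on the X chromosome, and the median difference was -0.04 over 495 X-linked genes and 0.07 over 13875 autosomal genes. Relative to the WT mean, the X-linked median was 0.0021 in KO 1 and -0.10 in KO 2, against autosomal medians of 0.08 and 0.07 in the same lines. Of the Y-linked genes Ddx3y, Eif2s3y, Kdm5d, Uty, Usp9y and Zfy1, none was well above background on both arrays of a group. Xist, the RNA that coats an inactive X, was at 3.72 and 5.52 in the KO lines, against 3.65 and 4.12 in the WT lines. It was not called (limma adjusted p = 0.541). The lowest signals well above background were 3.24 to 3.58 on the 4 arrays, so Xist lay near the floor except in KO 2. The part of the X-linked genes, the Y-linked genes and Xist in the Suv39h1 values was not tested.

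The paralogue Suv39h2 had 9.85 and 9.56 in the KO lines, against 9.68 and 9.86 in the WT lines, so the groups overlapped. Its 3 probes gave differences of -0.06, -0.10 and -0.04, and the widest 95% interval ran from -0.55 to 0.43. For the probe with the highest signal the pairs went opposite ways, with 0.17 for mother 1046 and -0.29 for mother 875. Suv39h2 turned positive under median centring, without WT 2 and without KO 2.

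**Figure D2:**
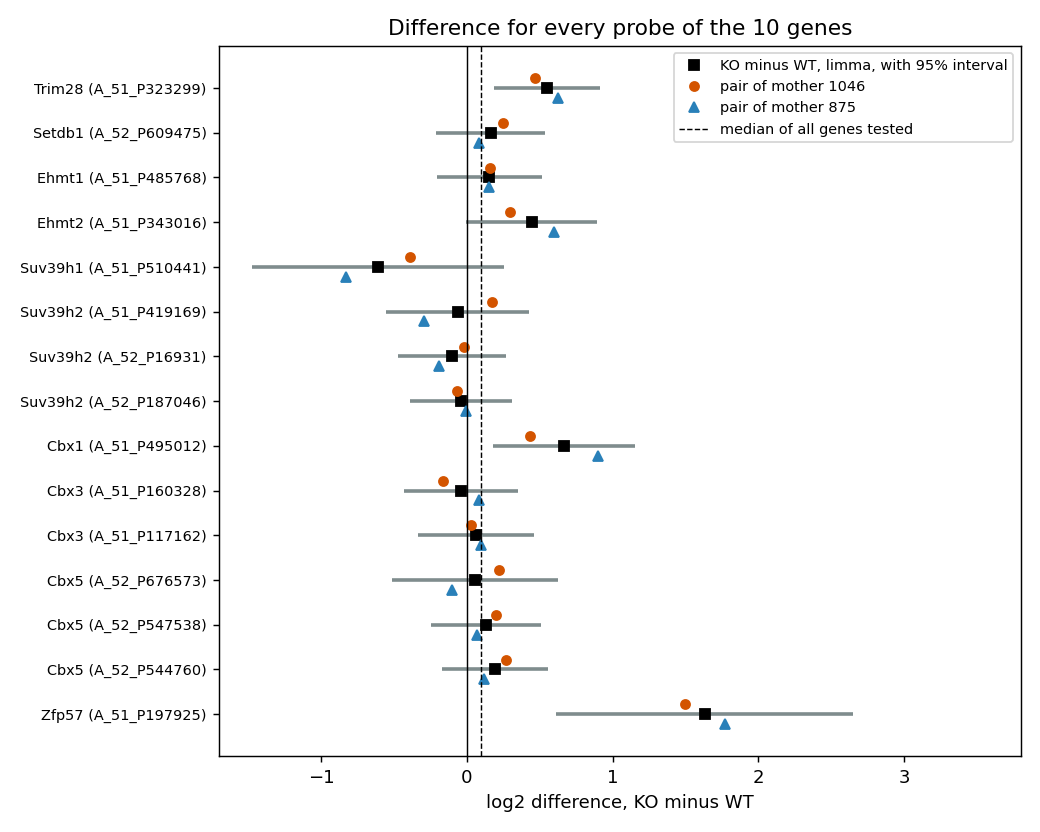
Log2 difference, KO minus WT (x axis), for each of the 15 probes of the 10 genes (rows): squares with 95% intervals from limma, and the difference within the pair of mother 1046 (circles) and of mother 875 (triangles); the dashed line is the median of all genes tested, 0.10. Intervals of Zfp57, Trim28 and Cbx1 lie above 0, those of the other 12 probes span it, and probes of the same gene lie within 0.14 of each other.

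Bright probes as a class had a higher difference than all genes: the 1982 genes with a mean log2 signal of at least 14 had a median of 0.17. Trim28, Ehmt2, Cbx1 and Cbx3 are among them, and the part of brightness in their differences was not tested. The median over the 10 genes was 0.16, only 0.06 above that of all genes, and under quantile scaling it was 0.08, or -0.01 relative to all genes. It was 0.25 without KO 2. Relative to all genes, the median of the 10 ran from -0.01 to 0.18 over the 17 other settings. Whether the 10 genes moved as a group was not tested.

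Promoter sequence is shown for the 3 genes with an unadjusted p under 0.05, because they differ in their content of CG dinucleotides, the sites at which DNA is methylated. Each window holds 250 bases before and 50 after a transcript start, from RefSeq on build GRCm38.p6, written 5′ to 3′ on the strand of the gene with each CG in capitals. All 10 genes matched the table, with 16 windows. Trim28 lies at chr7:13023902-13024201 (plus strand), Cbx1 at chr11:96788885-96789184 (plus strand), and Zfp57 has 3 windows, of which the one richest in CG, at chr17:37002275-37002574 (plus strand), is given.
Trim28: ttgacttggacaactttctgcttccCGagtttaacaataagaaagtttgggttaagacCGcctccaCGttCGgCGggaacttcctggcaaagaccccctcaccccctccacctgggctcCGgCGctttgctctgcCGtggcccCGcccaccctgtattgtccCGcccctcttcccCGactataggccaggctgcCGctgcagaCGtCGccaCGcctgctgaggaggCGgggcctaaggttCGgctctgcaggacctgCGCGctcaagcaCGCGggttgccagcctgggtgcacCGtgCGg
Cbx1: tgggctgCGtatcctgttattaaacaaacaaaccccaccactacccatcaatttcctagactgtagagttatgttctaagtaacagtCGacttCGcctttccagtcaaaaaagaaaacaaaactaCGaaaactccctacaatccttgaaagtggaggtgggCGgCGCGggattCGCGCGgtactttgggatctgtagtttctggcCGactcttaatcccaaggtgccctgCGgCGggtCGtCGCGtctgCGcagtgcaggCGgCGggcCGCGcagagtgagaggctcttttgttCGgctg
Zfp57: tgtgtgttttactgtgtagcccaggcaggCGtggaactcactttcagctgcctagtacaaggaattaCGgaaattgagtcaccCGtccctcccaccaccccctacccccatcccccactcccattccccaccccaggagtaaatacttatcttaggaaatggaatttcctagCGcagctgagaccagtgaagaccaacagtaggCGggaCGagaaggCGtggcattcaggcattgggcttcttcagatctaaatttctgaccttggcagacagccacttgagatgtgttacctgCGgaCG

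The Trim28 window held 23 CG and the Cbx1 window 22, counts reached by 21.5% and 23.1% of 32851 mouse promoter windows of this length. The 3 windows of Zfp57 held 4, 6 and 9, against a median of 7 over all windows. The 2 genes of the SUV39H enzymes had between 15 and 37, and the richest window of the 10 genes was one of Ehmt2 with 40. The hexamer TGCCGC, the core that ZFP57 recognises when methylated, was searched on both strands. It occurred once in the Trim28 window, in 1 of 2 windows of Ehmt2 and in 1 of 2 of Suv39h1, and in none of the other 13, against 11.6% of all windows. The arrays hold no measurement of methylation or binding at these sequences.

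Other genes of the pathway were read from lists of partners, KRAB zinc finger genes, demethylases and heterochromatin proteins, and none of the 55 tested members of these lists passed the test over all genes. Of 13 tested partners of the methyltransferases, 3 were higher and 1 lower at an unadjusted p under 0.05, where 11.2% of all genes were higher and 12.4% lower. Their median difference of 0.04 was below that of all genes, ran from 0.09 to 0.11 with 1 array left out and was 0.21 with the mean over probes. Cdyl2, a chromodomain gene, had the largest difference, with 14.40 and 15.12 in the KO lines, against 12.69 and 13.13 in the WT lines (log2 difference 1.85, limma adjusted p = 0.0993). Its paralogue Cdyl, which encodes a corepressor that binds methylated H3K9, differed by 0.49 (limma adjusted p = 0.185). For Prdm16, which encodes a PR-domain methyltransferase, the difference was 1.48 (limma adjusted p = 0.210). The pairs were unlike, with 0.53 for mother 1046 and 2.44 for mother 875. Pphln1, whose protein periphilin belongs to the HUSH silencing complex, measured lower, with 11.92 and 11.52 in the KO lines, against 12.39 and 12.81 in the WT lines (log2 difference -0.87, limma adjusted p = 0.169). The HUSH genes Mphosph8 and Tasor, chosen after their values were seen, had differences of 0.38 and 0.50.

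Of 4 tested KRAB zinc finger genes, Zfp819 was the one with an unadjusted p under 0.05. It had 12.49 and 12.78 in the KO lines, against 11.78 and 11.85 in the WT lines (log2 difference 0.82, limma adjusted p = 0.112). Zfp445, which like Zfp57 acts at imprinting control regions, differed by 0.41, but by 0.19 without WT 1 and by 0.64 without WT 2. For Zfp809, which recognises a retroviral primer binding site, the difference was 0.30, and it was 0.12 without KO 1, 0.47 without KO 2 and 0.90 with the mean over probes. Zfp708 differed by -0.09. Among 11 tested H3K9 demethylase genes, 2 were higher and 0 lower at an unadjusted p under 0.05, where 11.2% and 12.4% of all genes were. They were Kdm3a, with 13.56 and 13.61 in the KO lines, against 13.06 and 12.62 in the WT lines (log2 difference 0.75, limma adjusted p = 0.164), and Kdm4c (log2 difference 0.53, limma adjusted p = 0.170). Kdm4a and Kdm4b differed by 0.35 and 0.29. The demethylase median was 0.26, and 0.15 without WT 2.

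The 27 tested heterochromatin and HP1-associated genes had a median difference of 0.34, with 8 higher and 0 lower at an unadjusted p under 0.05, where 11.2% of all genes were higher and 12.4% lower. Without WT 2 the median was 0.21. Both KO lines lay above both WT lines for 20 of the 27, where 37.7% of all genes did so. The smallest p belonged to Sirt1, which encodes a histone deacetylase. It had 13.58 and 13.56 in the KO lines, against 12.47 and 12.48 in the WT lines, a difference of 1.09 (SE 0.12), or 2.13-fold (limma adjusted p = 0.0535). Sirt1 passed under 4 of 17 other settings (limma adjusted p of 0.0262 to 0.286 over all 17). Kmt5c, the gene of a methyltransferase for lysine 20 of histone H4, differed by 0.72, Daxx, a chaperone gene for histone H3.3, by 0.67, and its partner Atrx by 0.67 (limma adjusted p of 0.112, 0.113 and 0.143). Relative to all genes the list's median was 0.24, and it was 0.13 under quantile scaling.

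**Figure D3:**
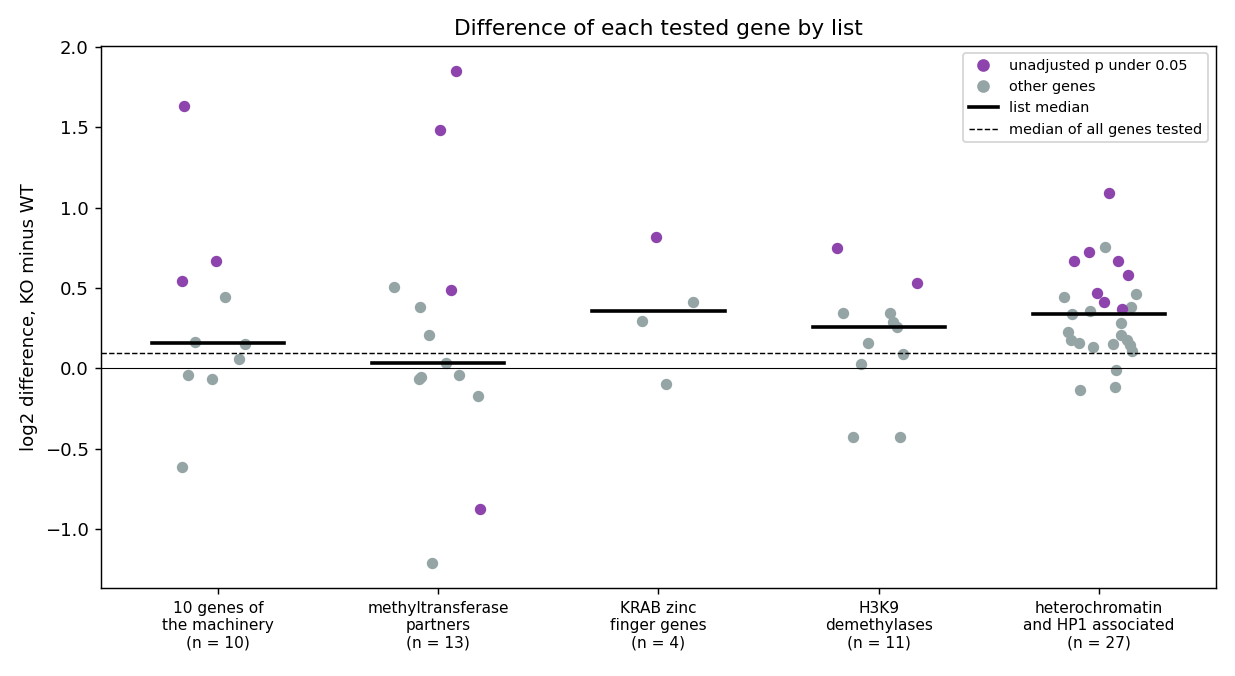
Log2 difference, KO minus WT (y axis), of each tested gene of the 10 genes and of 4 related lists (x axis); purple points had an unadjusted limma p under 0.05, thick bars are list medians and the dashed line is the median of all genes tested. List medians run from 0.04 for the methyltransferase partners to 0.36 for the KRAB zinc finger genes, and no point passed the test over all genes.

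Magea genes, which EHMT2 silences in mouse ESCs, were read beside the machinery itself. Of 6 measured, 5 were not well above background on both arrays of either group. Magea5 lay near the floor, with 4.08 and 3.90 in the KO lines, against 4.02 and 3.56 in the WT lines (log2 difference 0.20, limma adjusted p = 0.594).

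Differences between the genotypes were also read for Dppa2 and for markers of cell types, few of which were called. Dppa2 itself fell to 7.05 and 7.12 in the KO lines, against 12.09 and 12.03 in the WT lines (limma adjusted p = 0.00886), a call that did not hold with the mother as a block (limma adjusted p = 0.0807). All 8 tested ESC markers had positive differences, where 12803 of all 21639 genes did. The ESC marker median was 0.79, and none passed the test. Of 10 trophoblast markers 1 fell (Krt8), 7 had both KO lines below both WT lines and 2 (Tfap2c and Ascl2) above them, and the median difference was -1.65. Their summed signal, 16.02 to 16.41 in the KO lines, against 18.16 to 18.54 in the WT lines, came mostly from Krt8 and Krt18, whose WT means were 17.24 and 17.31. Of 10 fibroblast markers 2 fell (Mmp2 and Fbn1), 6 had both KO lines below both WT lines and 0 above them, and the median difference was -1.53, with sums of 12.35 to 12.60 in the KO lines, against 12.60 to 13.91 in the WT lines. Of 10 primitive endoderm markers 1 rose (Lama1) and 1 fell (Dab2). Both KO lines lay above both WT lines for 5 and below them for 3, not far from the shares of all genes. The median difference of these markers was 0.86. Their sums ran the other way, at 11.86 to 12.29 in the KO lines, against 12.86 to 13.06 in the WT lines, and the largest part of the sum in WT lines was Col4a1, with a mean of 12.49 (log2 difference -2.18, limma adjusted p = 0.0688). With the mother as a block none of these markers passed, as no gene did. These sums are log2 of the added signals. Each of these markers exceeded the background call in all 4 lines, except Lum and Elf5, which did so in 1 of 2 KO lines. Fewer cells of a type and less RNA per cell cannot be told apart in such samples, and the part of these markers in the values of the 10 genes was not tested.

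**Figure D4:**
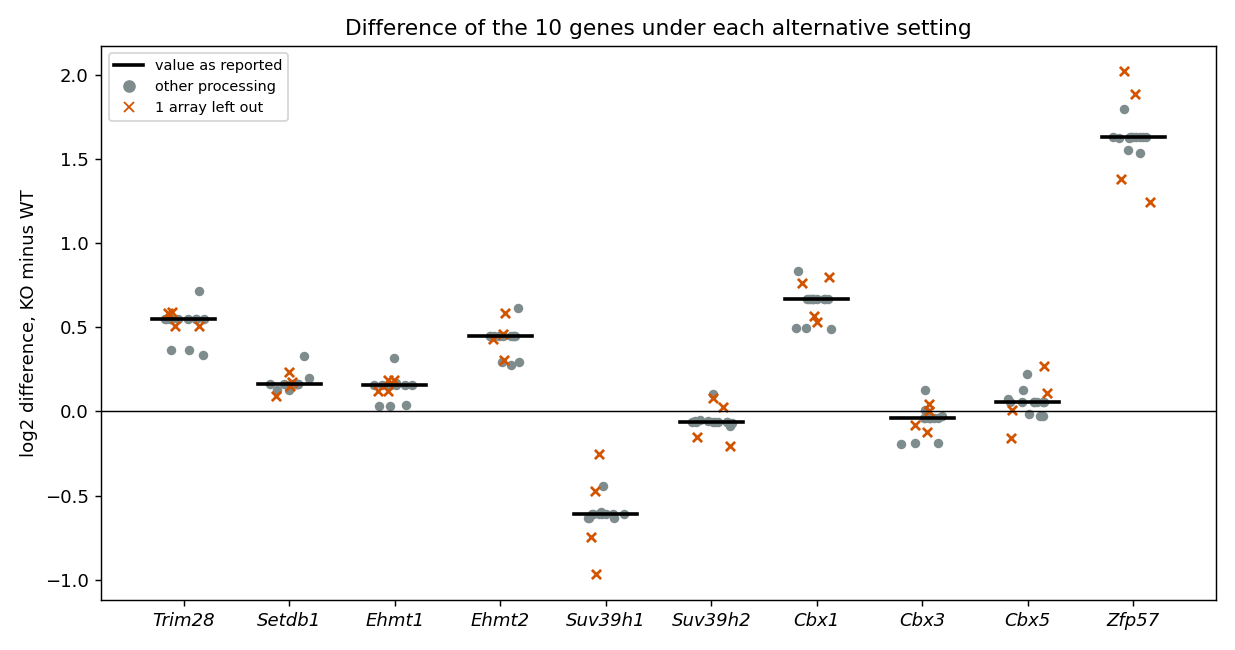
Log2 difference, KO minus WT (y axis), of the 10 genes (x axis) as reported (bars) and under the other settings (grey points for other processing, orange crosses with 1 array left out). Zfp57 stays between 1.24 and 2.02 and Trim28 between 0.34 and 0.71, Suv39h1 stays negative, and Suv39h2, Cbx3 and Cbx5 lie on both sides of 0.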

How the data were processed

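Total RNA of 4 ESC lines was labelled with Cy3 and hybridised singly to Agilent whole mouse genome arrays. Per the file headers, the authors extracted spot intensity values with Agilent Feature Extraction 10.7.3.1 and detrended them within each array. The processed intensity is background-subtracted and not scaled between arrays. The deposited series table holds log2 values with shared quantiles and a median of 6.55 per column, and its making is not described in the sources used here.

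From the processed intensity, log2 values minus the 75th percentile of each array were computed, without control or outlier spots. Of 41174 probes 26690 had 1 symbol through their accession (RefSeq, GRCm38.p6), 0 several and 14484 none. A probe was kept when well above background on both arrays of a group, which 68.6% to 70.5% of probes were on each array, and of several such probes the one with the highest mean was taken for the gene. The number of arrays limits the precision. The genotype test was limma's (version 3.58.1, R 4.3.3), fitted over all 21639 genes with Benjamini-Hochberg adjustment. The labels tie equal replicate numbers to a shared mother, and the differences between mothers correlated at 0.19 across genes in both genotypes, so the block is given. All arrays shared 1 slide and 1 scan. The normexp settings used the median spot signal in place of the mean. The fit was checked on simulated data. The smallest simulated difference was larger than those of 9 of the 10 genes and was not called, and differences as small as theirs were not simulated. Named genes are the 10, Dppa2 and Dppa4, the 4 smallest p of each related list, the 3 nearest genes to the one with the smallest p, and Xist, Ddx3y, Eif2s3y and Kdm5d. The cell type markers, the other Y-linked genes, Mphosph8 and Tasor were named outside that rule. The genes and lists were chosen with earlier results of these data known. A total of 17 other settings were tried.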

Additional observations from a re-analysis of the deposited data

How the results depend on the processing

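The 10 genes gave 0 calls in either direction under all 17 other settings, but this says nothing of stability: 5 of those settings called no gene at all and 1 called a single gene. In the settings with no array left out, 1 to 4 of the 10 were higher and 0 lower at an unadjusted p under 0.05. Under median centring 4 of the 10 were higher, where 4778 of 21639 genes were higher and 2100 lower. With an ordinary t statistic 1 of the 10 was higher, where 2269 of 21639 genes were higher and 1627 lower. Zfp57, Trim28, Cbx1, Ehmt2, Ehmt1 and Setdb1 stayed positive in all 17, and Suv39h1 negative in the 16 that include it. Most of these settings could not have changed the sign. Each of these genes had 1 probe, so other filters, probe rules and tests left its difference as it was. Leaving out 1 array could not reverse it, because the KO and WT lines of these genes did not overlap. Only the other scalings, the normexp correction and the deposited values could have done so. Near 0, Cbx5 turned to -0.028 under quantile scaling, -0.029 with the deposited values and -0.015 under normexp with quantiles, and ran from -0.16 to 0.27 with 1 array left out. Cbx3 turned to 0.13 under median centring, 0.011 with the mean over probes, and ran from -0.12 to 0.042 with 1 array left out. Suv39h2 turned to 0.10 under median centring and ran from -0.21 to 0.081 with 1 array left out. Zfp708 turned to 0.073 under median centring (-0.47 to 0.28 with 1 array left out) and Magea5 to -0.12 under normexp with the 75th percentile (-0.034 to 0.43 with 1 array left out). In the heterochromatin list 1 gene, Sirt1, was called under median centring (limma adjusted p = 0.0483), normexp with the 75th percentile (0.0392) or quantiles (0.0446) and an intensity trend (0.0262).

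Over all genes 38 were called higher and 361 lower. The higher count was 58 under median centring, 73 under normexp with the 75th percentile, 81 with an intensity trend, 9 with no filter on dim probes and 1 with an ordinary t statistic, which called 0 lower. Both counts were 0 with genes above background on all 4 arrays and 0 with the mother as a replicate block. With 1 array left out they ran from 0 to 64 higher and 0 to 676 lower; only leaving out KO 1 gave calls. At an unadjusted p under 0.05 limma gave 2280 higher and 2734 lower with the block. Median centring moved the median difference over all genes to 0.26. The 95% intervals of single genes, such as -0.55 to 0.43 for Suv39h2, show what 2 lines a group can resolve.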

Other observations

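Dppa4, the other gene of the targeted locus, was at 13.95 and 14.07 in the KO lines, against 13.37 and 13.54 in the WT lines. Its log2 difference was 0.55 (limma adjusted p = 0.154, not called). It stayed between 0.39 and 0.72 over 17 other settings. Of the 10 genes, 7 had the same sign in both pairs, and 6 had the larger difference in the pair of mother 875. The shares of all genes with these traits were not computed, so the counts do not set the 10 genes apart.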
